A study of Komagataella phaffii with 18 samples.

Results

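The 70 features described here were chosen by their measured levels as features with a strong rise in acetate that was shared by 3 strains of the methylotrophic yeast Komagataella phaffii and that were already counted in rich medium. Of the 5341 features in the deposited tables, 4831 met the first part of the rule, which keeps IDs of chromosomes 1 to 4 with a number of at least 0075 and a length above 300 bases. Levels were CPM, the estimated count scaled to a library sum of 1000000, averaged over the 3 libraries of a group, and a ratio was formed after adding 5 CPM to both levels. A member had a mean of at least 5 CPM over the 9 YPD libraries, a ratio of acetate over YPD of at least 5 in each strain, and acetate ratios between the strains above 0.5 and below 2. Since these values chose the members, the rise in acetate, the level in YPD and the likeness of the strains in acetate are given below as descriptions of the choice, without a test.

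Polyadenylated RNA of strain CBS2612 was sequenced in 18 libraries, 3 in each of 6 groups. The strains were wild type and the heterothallic strains dic1-2Δ(a), of a-type, and dic1-2Δ(α), of α-type, each type represented by a single strain background. Each strain was sampled in YPD, a rich glucose medium, while growing exponentially, and again 24 h after those cultures had been moved to acetate medium. Medium, time and growth phase therefore cannot be told apart. The deposited depth was low, at 234044 to 309362 estimated counts per YPD library and 637339 to 765524 per acetate library, so a level in YPD rests on fewer counts than a level in acetate. The labels do not say whether the libraries of a group are separate cultures, and p-values therefore cover only the differences among these samples, which could be technical.

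Acetate is a poor carbon source for yeasts. Cells that use it turn it into acetyl-CoA, pass it through the glyoxylate cycle, which bypasses the steps of the citric acid cycle that release carbon dioxide, and make sugars from it by gluconeogenesis. In many yeasts glucose represses the genes of these pathways, and their repression ends when glucose is gone. K. phaffii also mates and forms spores under poor nutrition, and wild-type cells can switch mating type by inverting a segment of chromosome 4, whereas a heterothallic strain keeps its type. The files pair the IDs with no gene names, and 0 of the 5341 IDs matched the gene table of the strain GS115 that was at hand. No member is therefore given a gene name, a role or a sequence here.

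Of the 4831 features, 4670 reached the YPD minimum. Among these the ratio was at least 5 in wild type for 247, in a-type for 138 and in α-type for 173. In all 3 strains it was at least 5 for 98, of which 28 lay outside the limits on the strain ratios in acetate and 70 were members. Another 5 features rose as much in all 3 strains but lay below the YPD minimum. Most features with a strong rise in every strain thus reached the YPD minimum, but so did 4670 of the 4831 features at large. In the edgeR fit over all features, 70 of 70 members passed the threshold as higher in acetate in each strain, beside 25.5% of the tested features in wild type, 20.3% in the a-type strain and 22.4% in the α-type strain. The rule used this contrast, so nothing is read from that count.

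**Figure D1:**
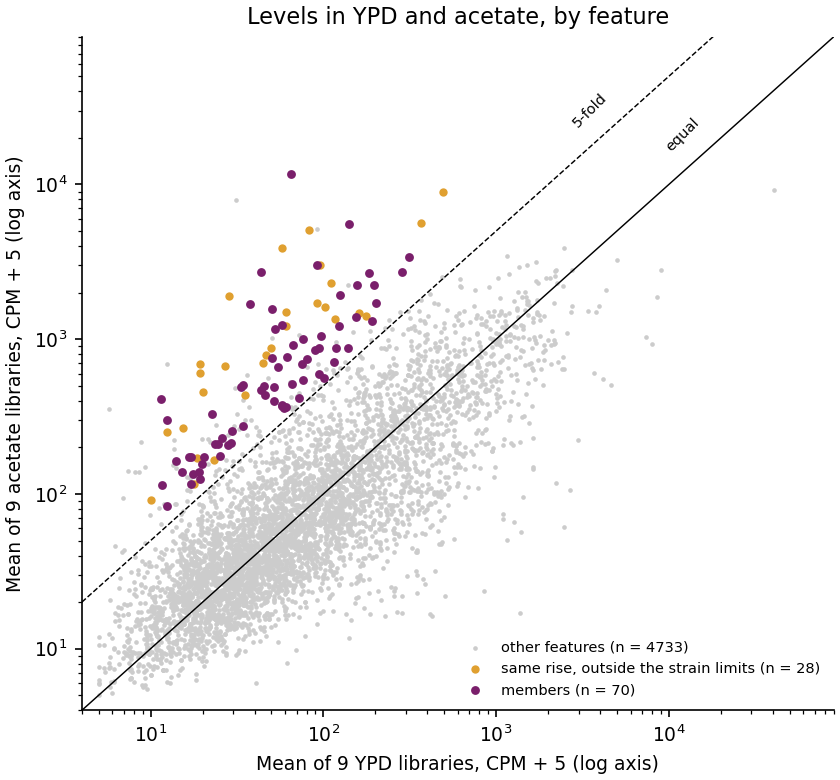
Mean level of each feature over the 9 acetate libraries (y axis) against the 9 YPD libraries (x axis), both as CPM + 5 on log axes, with 70 members, the 28 features that rose as much but differed between strains in acetate, and all other features. The members spread along the whole middle range of YPD levels, from 6.42 to 307 CPM, and grey points above the dashed 5-fold line did not meet the rule in every strain or lay below the YPD minimum.

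The members took up a small part of each YPD library and a large part of each acetate library. Their summed counts were 0.407%, 0.507% and 0.339% of the library in YPD wild type, 0.528%, 0.485% and 0.519% in the a-type strain and 0.470%, 0.524% and 0.409% in the α-type strain. In acetate they were 6.84%, 7.15% and 7.10% in wild type, 7.43%, 7.11% and 7.03% in the a-type strain and 7.50%, 7.16% and 7.33% in the α-type strain. By this share of counts the strain groups overlapped in YPD. In acetate only wild type and α-type did not, with wild type lower by a narrow margin. As means, the share went from 0.418% ± 0.0848 to 7.03% ± 0.166 in wild type (SD, n = 3), from 0.511% ± 0.0225 to 7.19% ± 0.215 in the a-type strain and from 0.468% ± 0.0578 to 7.33% ± 0.166 in the α-type strain. These are 16.8-fold, 14.1-fold and 15.7-fold rises of the summed level. Per length, as a share of the deposited TPM, the members rose from 0.213% ± 0.0589 to 4.23% ± 0.0591 in wild type, from 0.287% ± 0.0289 to 4.01% ± 0.0624 in the a-type strain and from 0.246% ± 0.0460 to 4.07% ± 0.0817 in the α-type strain. On this scale wild type was highest in acetate, at 4.16%, 4.25% and 4.28%. The highest library of the heterothallic strains had 4.13%, so the direction of the strain difference depended on the scale.

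**Figure D2:**
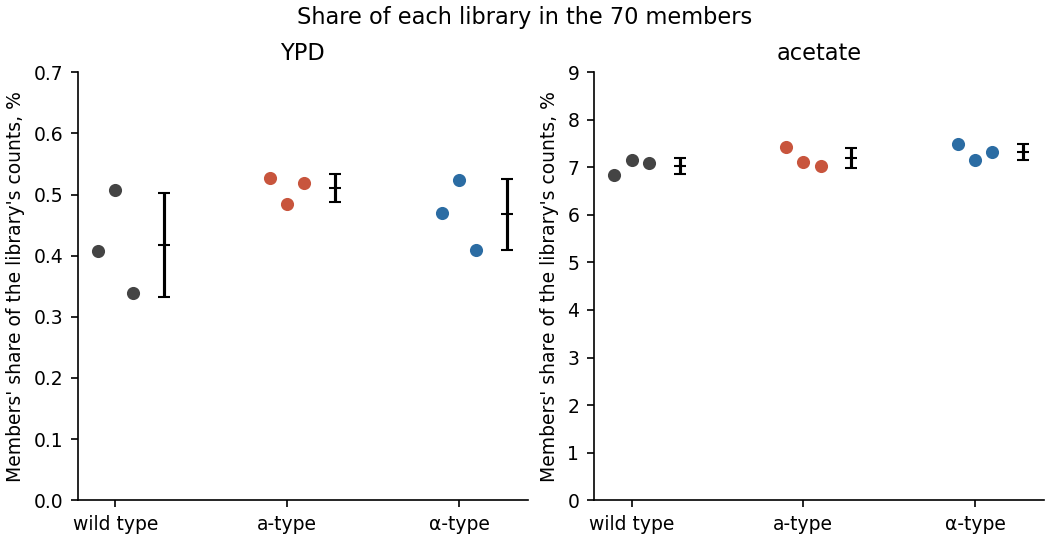
Share of each library's counts that fell on the 70 members, in percent, with 1 point per library and the mean ± SD of 3 libraries beside the points. The left panel is YPD and the right panel acetate, on different scales, and YPD shares lie between 0.339% and 0.528%, and acetate shares between 6.84% and 7.50%.

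Compared with the rest of the transcriptome, members were of middling level in YPD and high in acetate. Ranked by mean CPM among the 4831 features, the median rank of a member was 2593.5 in YPD and 461 in acetate, and 13 members were among the top 100 in acetate against 0 in YPD. The median member had 48.5 CPM in YPD and 505 CPM in acetate, while the other features at or above the YPD minimum had medians of 59.0 and 55.7 CPM. On the TPM scale, which allows levels of different genes to be compared, the median member went from 19.5 to 275 TPM, with 7 members among the top 100 in acetate. Across members the levels in the 2 media kept much of their order, with a Spearman correlation of 0.83 over 70 features that come from the same libraries. Since every member had to rise by a set ratio, part of this order follows from the rule.

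PP7435_Chr1-0175 stood apart from the other members. It had 36.9, 47.8 and 51.3 CPM in YPD wild type, 67.2, 97.0 and 42.4 CPM in the a-type strain and 56.9, 60.8 and 80.3 CPM in the α-type strain. In acetate it reached 9769, 10360 and 10745 CPM in wild type, 13255, 11772 and 11439 CPM in the a-type strain and 13452, 11959 and 12887 CPM in the α-type strain. It was the feature with the highest acetate CPM of all 4831, and no acetate library came near a YPD library. The fitted log2 fold changes were 8.08 (SE 0.28) in wild type, 7.53 (SE 0.27) in the a-type strain and 7.60 (SE 0.27) in the α-type strain. This single feature held 16.3% of the members' summed acetate CPM, and the top 10 members held 53.1%. Without it the summed level rose 14.5-fold in wild type, 11.9-fold in the a-type strain and 13.1-fold in the α-type strain.

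PP7435_Chr1-0513 was next in acetate CPM. In YPD it had 191, 137 and 68.4 CPM in wild type, 230, 90.5 and 95.4 CPM in the a-type strain and 100.4, 224 and 80.3 CPM in the α-type strain. In acetate it had 4357, 4381 and 4236 CPM in wild type, 6437, 6166 and 6277 CPM in the a-type strain and 5954, 5641 and 6153 CPM in the α-type strain. The YPD libraries of a strain thus differed by up to nearly 3-fold while the acetate libraries of a strain lay close together, with wild type below both heterothallic strains on this scale. Its coding length of 4617 bases is among the longest of the set, and per length it stood lower, at 611 ± 6.39 TPM in acetate wild type.

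By the smallest of its 3 strain ratios, the set has a long lower part and a short upper tail. The smallest ratio was between 5 and 10 for 52 members, between 10 and 20 for 11 and at least 20 for 7, with a median of 7.48 over the 70. The 7 members of the tail held 33.3% of the summed acetate CPM, the 52 of the lower part 48.0%. Their median YPD level was 38.5 CPM, against 51.1 CPM in the lower part, so the tail did not start from higher levels. The YPD level is the denominator of the ratio that sets the tail apart, so nothing more is read from this. The median ratio over all members was 10.7 in wild type, 8.65 in the a-type strain and 10.1 in the α-type strain.

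**Figure D3:**
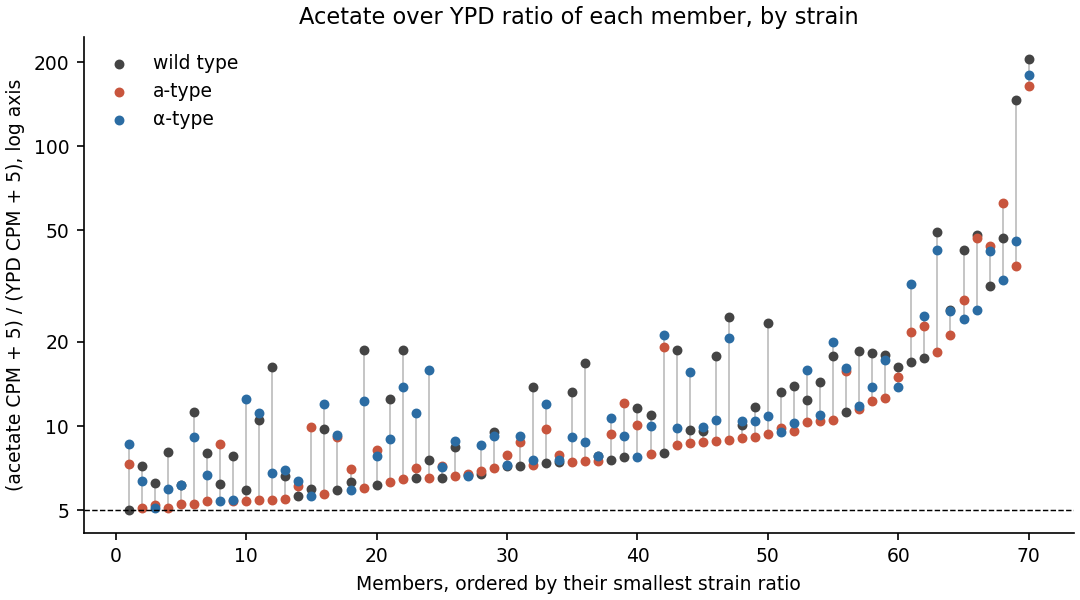
Ratio of acetate over YPD, from group means of CPM + 5, for each of the 70 members in wild type, a-type and α-type, on a log axis. Members are ordered by their smallest ratio, a grey line joins the strains and the dashed line marks 5; most members lie between 5 and 20 in all strains, and PP7435_Chr1-0175 lies above 160 in each.

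PP7435_Chr3-0481 had the next largest smallest ratio, 37.2 in the a-type strain, with 45.9 in the α-type strain and 147 in wild type. Its YPD levels were 13.4, 23.9 and 25.6 CPM in wild type, 31.8, 45.3 and 63.6 CPM in the a-type strain and 80.3, 38.0 and 24.4 CPM in the α-type strain. In acetate it had 3596, 3964 and 3877 CPM in wild type, 2010, 1886 and 1886 CPM in the a-type strain and 2280, 2504 and 2439 CPM in the α-type strain. Wild type was lowest in YPD by its mean and highest in acetate, where its libraries did not overlap those of the other strains. The acetate means of wild type and a-type differed 1.98-fold, which is close to the limit of 2 that the rule set.

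The other members of the tail were named after their values were seen. PP7435_Chr3-0141 went from 27.2 ± 33.7 to 1513 ± 94.9 CPM in wild type, from 24.3 ± 11.2 to 1828 ± 194 CPM in the a-type strain and from 46.8 ± 22.9 to 1717 ± 140 CPM in the α-type strain (SD, n = 3). In YPD wild type its libraries had 16.8, 64.9 and 0 CPM, so the wild-type ratio of 47.1 rests on a wide spread. PP7435_Chr4-0541 went from 41.1 ± 29.6 to 1953 ± 205 CPM in wild type, from 44.8 ± 8.03 to 1405 ± 77.0 CPM in the a-type strain and from 50.8 ± 2.23 to 1337 ± 144 CPM in the α-type strain. PP7435_Chr2-0119 was much rarer and rose from 5.90 ± 6.86 to 279 ± 35.8 CPM in wild type, from 9.22 ± 7.46 to 296 ± 51.1 CPM in the a-type strain and from 7.09 ± 0.465 to 306 ± 37.1 CPM in the α-type strain. The 3 strains reached nearly equal acetate levels for this feature.

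PP7435_Chr3-0773 was the member with the lowest YPD level and the widest spread between YPD replicates. It had 16 counts over the 9 YPD libraries, which pooled gives 6.28 CPM with a 95% Poisson interval of 3.59 to 10.2 CPM that covers counting error only. Its YPD levels were 0, 3.41 and 0 CPM in wild type, 0, 0 and 14.1 CPM in the a-type strain and 6.69, 26.6 and 6.98 CPM in the α-type strain. In acetate it had 263, 381 and 224 CPM in wild type, 490, 385 and 484 CPM in the a-type strain and 483, 367 and 575 CPM in the α-type strain. All acetate libraries were far above all YPD libraries, but the size of the rise is uncertain because of the low YPD counts. The nearest feature below the YPD minimum that met the other parts of the rule, PP7435_Chr3-0231, named after its values were seen, had 4.93 CPM in YPD.

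PP7435_Chr4-0092 and PP7435_Chr2-1137 were the members with the most counts in YPD. PP7435_Chr4-0092 had 309, 246 and 342 CPM in YPD wild type, 180, 472 and 230 CPM in the a-type strain and 164, 315 and 503 CPM in the α-type strain, and rose to 4026 ± 279, 2944 ± 79.1 and 3164 ± 318 CPM in acetate. PP7435_Chr2-1137 had 151, 464 and 137 CPM in YPD wild type, 99.0, 365 and 290 CPM in the a-type strain and 291, 270 and 461 CPM in the α-type strain, and rose to 2951 ± 142, 2571 ± 154 and 2678 ± 186 CPM. Here the YPD libraries of 1 strain differed by more than 3-fold in places, although the members had 782 and 726 counts over the 9 YPD libraries, while the acetate groups were tight. Their ratios were 7.76 to 13.3 over the 3 strains.

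Levels per length reorder the members. PP7435_Chr1-0758, with a coding length of 342, had the highest acetate TPM of the set, at 7447 ± 662 TPM in wild type, 4454 ± 79.2 TPM in the a-type strain and 4310 ± 298 TPM in the α-type strain (SD, n = 3). By counts it had 1379, 1247 and 1323 CPM in acetate wild type, 720, 696 and 737 CPM in the a-type strain and 747, 681 and 738 CPM in the α-type strain. Wild type lay above both heterothallic strains in every library. PP7435_Chr1-0175 followed with 2932 ± 185, 3720 ± 252 and 3817 ± 223 TPM. At the other end, PP7435_Chr4-0202 had 40.4 ± 5.71, 52.3 ± 4.83 and 39.7 ± 3.36 TPM and PP7435_Chr3-2381 had 60.2 ± 2.64, 35.8 ± 4.76 and 38.5 ± 0.179 TPM in acetate. In acetate the members thus ranged from 44.1 to 5404 TPM as means over 9 libraries. The YPD minimum and the ratio together set a floor under the acetate CPM, and the rule sets no upper limit.

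Members were longer than other features. The median coding length was 1776 for the members and 1231.5 for the 4600 other features at or above the YPD minimum, with quartiles of 1037.25 and 2484.75 against 801 and 1833. PP7435_Chr2-0766 was the shortest at 312 and PP7435_Chr2-0280 the longest at 4941. PP7435_Chr2-0280 had 604, 583 and 604 CPM in acetate wild type, 815, 675 and 644 CPM in the a-type strain and 767, 771 and 671 CPM in the α-type strain, from YPD means of 74.3 ± 14.3, 71.5 ± 27.8 and 64.5 ± 19.1 CPM. CPM is not corrected for length, and a longer feature passes a minimum in CPM at a lower level per length. The 4600 had passed the same YPD minimum as the members, and the 4761 other features that met the ID and length part had a median of 1209. The part of length in passing the rule was not tested. Across members, length and the smallest ratio had a Spearman correlation of 0.10 (n = 70, same libraries). The members lay on all 4 chromosomes, with 21 on chromosome 1, 14 on chromosome 2, 22 on chromosome 3 and 13 on chromosome 4, which is 1.46%, 1.17%, 1.95% and 1.42% of the features there that met the ID, length and YPD parts of the rule.

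**Figure D4:**
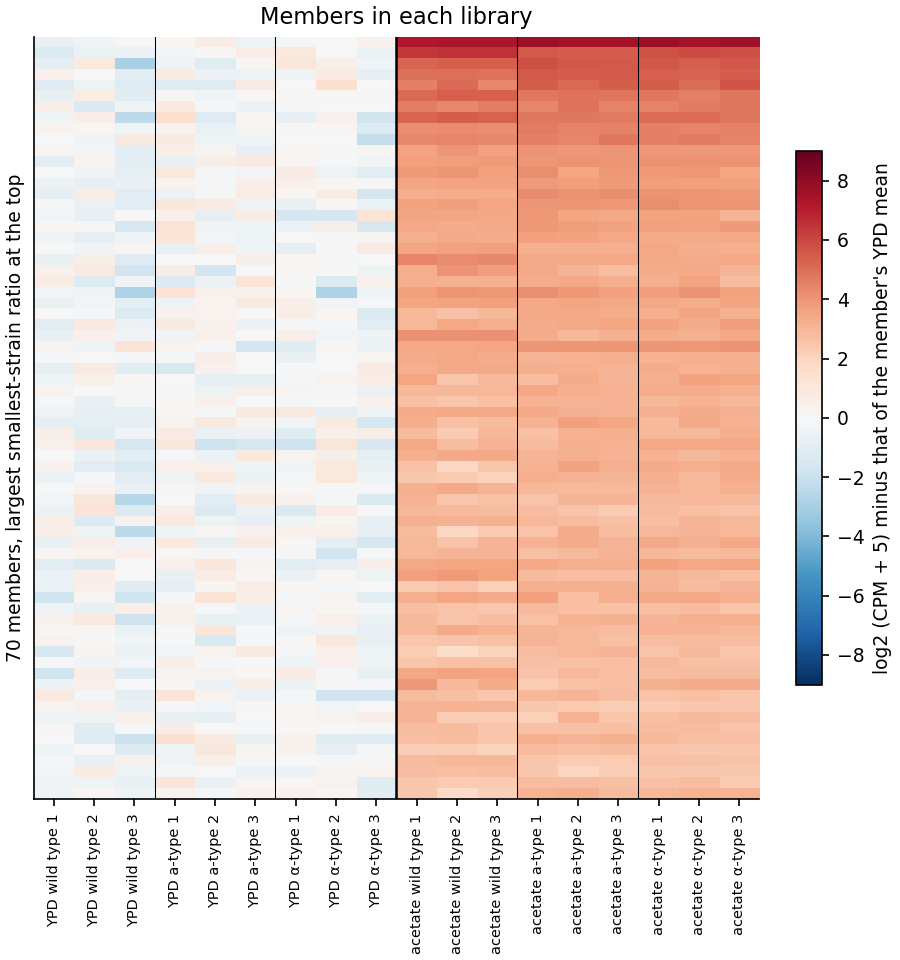
Level of each of the 70 members (rows) in each of the 18 libraries (columns), as log2 of CPM + 5 minus that of the member's mean over the 9 YPD libraries. Every member is above its YPD mean in every acetate library, and the YPD columns are more uneven than the acetate columns, with YPD wild-type replicate 3 and YPD α-type replicate 3 often below the YPD mean.

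All 70 members had each of the 9 acetate libraries above each of the 9 YPD libraries. Within a strain, the lowest acetate library over the highest YPD library was at least 2.64 and had a median of 4.86 for the strain where it was smallest. This pattern follows largely from a rule that asks for a 5-fold difference of group means. The share of all features with the same pattern was not computed, so nothing is read from the count of 70. The spread around the means was not part of the rule. The median coefficient of variation between the 3 libraries of a group was 45.9% in YPD wild type, 45.2% in the YPD a-type strain and 44.6% in the YPD α-type strain, against 39.8%, 40.7% and 36.7% in the 3814 other features within the members' range of YPD levels. In acetate it was 8.36%, 9.10% and 7.75%, against 10.3% to 12.04% in 1865 other features within the members' range of acetate levels. Counting error alone would give the members a median of 29.7%, 25.1% and 26.9% in the YPD groups and 5.39%, 5.50% and 5.14% in the acetate groups. The other features were matched by the range of levels only, not by how levels are spread within it, and their counting error was not computed. Whether members vary more in YPD or less in acetate than features of equal level was therefore not tested.

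Members with the smallest and the largest YPD spread show what these values mean. PP7435_Chr4-0824 had 47.0, 41.0 and 46.2 CPM in YPD wild type, 91.9, 61.4 and 108 CPM in the a-type strain and 97.0, 79.8 and 66.3 CPM in the α-type strain. In this steady member the wild-type libraries lay below all libraries of the heterothallic strains in YPD. The edgeR fit of the YPD libraries did not call these differences. The log2 difference from wild type was 0.83 (SE 0.41, edgeR adjusted p = 0.902) in the a-type strain. In the α-type strain it was 0.79 (SE 0.42, edgeR adjusted p = 0.9995). The member was chosen for its small spread within groups, so no strain difference is read from the lack of overlap. PP7435_Chr1-0787 had 138, 150 and 68.4 CPM in wild type, 99.0, 90.5 and 117 CPM in the a-type strain and 120.5, 91.2 and 112 CPM in the α-type strain, with overlapping groups. In contrast PP7435_Chr1-0819 had 3.36, 23.9 and 0 CPM in wild type, 14.1, 0 and 3.53 CPM in the a-type strain and 0, 15.2 and 6.98 CPM in the α-type strain, on 19 counts in all. Its acetate means of 89.3 ± 3.27, 68.3 ± 13.2 and 77.1 ± 7.29 CPM average to 78.2 CPM over the 9 libraries, the lowest of the set. Of the 70 members, 14 had at least 1 YPD library with 0 counts.

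The YPD libraries of a group also differed in how many members they held above the group mean. In YPD wild type 38, 44 and 20 of the 70 members were above their group mean on the log2 scale in replicates 1, 2 and 3. The median deviation in replicate 3 was -0.29, against -0.07 in the other features within the members' range of YPD levels. In YPD α-type replicate 3 it was -0.29, against 0.02, with 21 of 70 members above the mean. In YPD a-type the lowest library had -0.15, against 0.15. In acetate the median deviation of the members was between -0.02 and 0.03 in all 9 libraries. For the same other features, chosen by their YPD level, it was between -0.07 and 0.10 there. YPD wild-type replicate 3 was the library with the lowest total, and 9 members had 0 counts there; the part of depth in its low values was not tested. Without it the median log2 ratio in wild type was 3.25, and without YPD wild-type replicate 2, the highest, it was 3.66, against 3.42 with all libraries.

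Applied to fewer libraries, the rule can be read in those it did not use. With replicate numbers 2 and 3 of every group the rule kept 61 features, 57 of them members, and in the left-out replicate 1 the ratio was at least 5 in all 3 strains for 42 of the 61 and at least 2 for 61. With numbers 1 and 3 it kept 70 features, of which 62 were members, 45 had a ratio of at least 5 in replicate 2 and 68 of at least 2. With numbers 1 and 2 it kept 61, of which 54 were members, 50 reached 5 in replicate 3 and 61 reached 2. The lowest ratio in a left-out replicate was 1.59. In left-out replicate 1 the median log2 ratio was 3.47 in wild type, 3.01 in the a-type strain and 3.32 in the α-type strain, against 3.44, 3.06 and 3.47 in the libraries that chose the features. For left-out replicate 2 these medians were 3.35, 3.28 and 3.29 against 3.605, 3.09 and 3.33, and for left-out replicate 3 they were 4.19, 3.19 and 3.75 against 3.47, 3.13 and 3.42. The left-out median was thus below that of the choosing libraries in some strains and above it in others, with the widest gap in wild type for replicate 3. In the left-out replicate the acetate strain ratios stayed within the limits for 58 of 61 features (replicate 1), 57 of 70 (replicate 2) and 53 of 61 (replicate 3). How many of all features reached the ratios or stayed within the limits in a left-out replicate was not counted. The list itself changed with the libraries used.

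Near the ratio threshold, PP7435_Chr1-1513 was just inside with 5.03 in wild type, where it had 62.3 ± 17.0 CPM in YPD and 334 ± 75.8 CPM in acetate. PP7435_Chr3-0704 was inside with 5.09 in the a-type strain, where it had 75.5 ± 44.7 and 404 ± 13.5 CPM. Just outside, PP7435_Chr4-0869 had 4.93 in the a-type strain, from a YPD level above that of any member, 523 against 2601 CPM, and PP7435_Chr1-1236 had 4.90 in wild type but 16.5 in the a-type strain and 15.3 in the α-type strain. For both members just inside, the distance from the threshold was smaller than the spread between their YPD libraries. The member nearest the strain limits was PP7435_Chr3-0578, and the nearest feature outside them was PP7435_Chr4-0952, named after its values were seen, with 72.0, 152 and 111 CPM in acetate wild type, a-type and α-type.

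Within the limits of the rule, members still differed between strains in acetate. The largest strain mean over the smallest was below 1.5 for 52 of the 70 members, with a median of 1.29. PP7435_Chr3-0578 had the largest, at 150, 83.1 and 133 CPM in acetate wild type, 214, 291 and 236 CPM in the a-type strain and 243, 230 and 255 CPM in the α-type strain, so wild type was lowest without overlap. Wild type differed from a-type and from α-type in the same direction for most members, in ratios that share the wild-type libraries, as the plot of strain ratios in acetate shows. Which direction prevailed depended on the scale. By library sum the wild-type acetate mean was the highest for 24 members and the lowest for 39, and with TMM-scaled library sizes it was the highest for 49 and the lowest for 13. The mean TMM factor was 0.821 in acetate wild type, 1.06 in the a-type strain and 1.04 in the α-type strain. Among the other features at or above the YPD minimum, wild type was the highest for 17.8% and the lowest for 72.8% by library sum, and the highest for 35.3% and the lowest for 48.5% with TMM, so there wild type was more often lowest than highest on both scales. The rule used the acetate means of each strain, so nothing is read from how members and other features differ here.

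**Figure D5:**
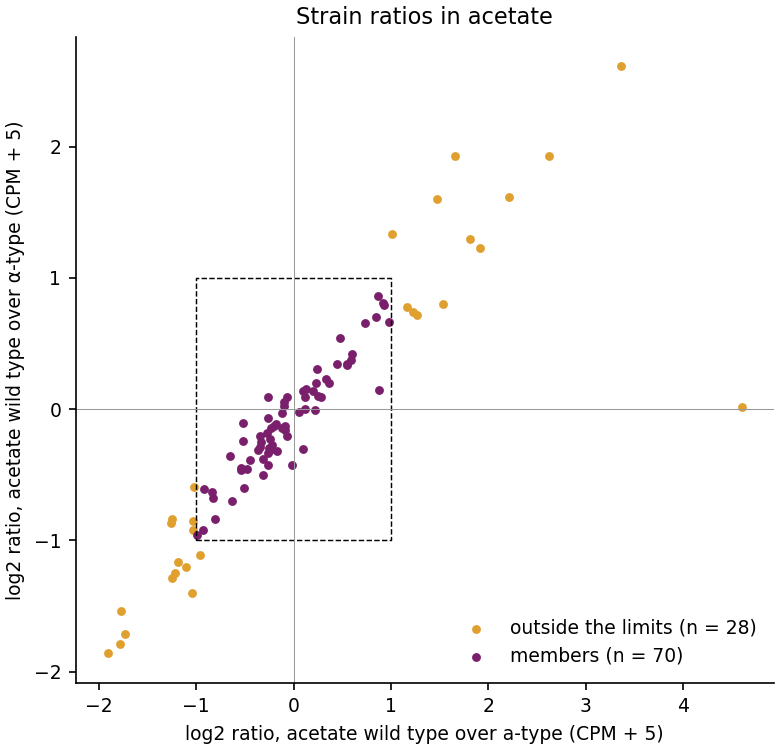
Log2 ratio of acetate wild type over α-type (y axis) against wild type over a-type (x axis), from group means of CPM + 5 by library sum, for the 70 members and the 28 features that rose as much but lay outside the strain limits. The dashed square marks 2-fold in either direction, and most points lie near the diagonal, both axes sharing the wild-type libraries; of the 28 outside, wild type had the highest acetate mean for 13 and the lowest for 15.

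The strains were compared in YPD, a contrast that the rule did not use, although the YPD means entered its ratios. No member passed the threshold in any of the 3 comparisons. In the edgeR quasi-likelihood fit of the 9 YPD libraries, 47 of the 70 members passed the filter on low counts, and 0 of these were called between a-type and wild type (0.0823% of all features tested), 0 between α-type and wild type (0.0274%) and 0 for a-type against α-type (0.0823%). In the other alternatives that were run the count was 0 too. The smallest Benjamini-Hochberg adjusted p from edgeR for a member was 0.841. An unadjusted p under 0.05 was found for 1 member in each comparison, which is 1 of 47, beside 5.54%, 3.10% and 1.32% of all features tested. DESeq2 called 0 members in each comparison as well. Setting a-type against wild type, it called 6 of only 1918 features tested. It called 2 of 5325 for α-type against wild type and 3 of 5325 for a-type against α-type. How many of the 70 members were among the 1918 was not counted, so nothing is read from the 0 there. At an unadjusted p under 0.05 DESeq2 had 0, 1 and 0 of the 70.

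The YPD differences of members could only be measured coarsely. The 95% interval of a log2 difference reached a median of 0.99 to either side when a-type was compared with wild type, 0.99 for α-type with wild type and 0.98 for a-type with α-type, and it lay wholly within 2-fold for 2, 6 and 8 of the 47 members. A lack of calls therefore does not show that the strains had equal levels. PP7435_Chr3-1026, named after its values were seen as the member with the smallest p, had 16.8, 13.7 and 38.5 CPM in YPD wild type, 56.6, 87.3 and 49.4 CPM in the a-type strain and 16.7, 19.0 and 62.8 CPM in the α-type strain. Its a-type libraries lay above all wild-type libraries, with a log2 difference of 1.37 (95% interval 0.12 to 2.61, edgeR adjusted p = 0.841). The other members at an unadjusted p under 0.05, also named after their values were seen, were PP7435_Chr2-0276, with a log2 difference of -0.998 (SE 0.45) between α-type and wild type, and PP7435_Chr1-0251, with -0.92 (SE 0.43) between a-type and α-type. The members' median log2 difference was 0.23 for a-type over wild type, 0.17 for α-type over wild type and 0.11 for a-type over α-type, beside medians of 0.04, 0.02 and 0.0025 over all features tested. By library sum the a-type YPD mean was the highest for 45 of the 70 members and with TMM for 37, beside 46.5% and 35.3% of the other features at or above the YPD minimum.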

How the data were processed

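Each sample had 1 table of estimated counts and TPM that the authors deposited, with kallisto's column names per the file headers. Per the submitters' processing notes, the tools were kallisto, DESeq2, TopHat2, SAMtools, Trim Galore 0.4.2 and FastQC 0.11.2, with no role stated. A genome build was not given in the sources consulted. Estimated counts need not be whole, since kallisto divides reads that match several features, so near-identical copies are uncertain. The deposited TPM values are scaled by effective length and library, and describe levels only. The 9 deposited tables of normalized counts were not used. Lengths are whole multiples of 3 in 99.9% of features and are called coding lengths.

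CPM was computed as estimated counts over the library sum. For tests, estimated counts were rounded and fitted with edgeR 4.0.16 in R 4.3.3 (filterByExpr, TMM, robust quasi-likelihood, Benjamini-Hochberg over all features tested, threshold 0.05). YPD strain comparisons used the 9 YPD libraries, because YPD replicates spread more than acetate replicates, and fold changes between media used all 18. The SE is the log2 fold change over the square root of F, and intervals use the fitted degrees of freedom. Alternatives included DESeq2 1.42.0. The replicate numbers were not taken as pairs, since the deviations of same-numbered libraries did not all correlate above 0.1. At the low YPD depth this check cannot exclude that they mark the same cultures.

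Features named are the extremes in level, ratio, length, spread and strain difference and those next to a threshold; others are said to be named after their values were seen. The members, lists and tests were chosen with earlier results of these data known. Lists of genes of acetate use, of mating and meiosis, and of mating-type markers could not be applied, since the IDs have no names.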

Additional observations from a re-analysis of the deposited data

How the results depend on the processing

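The number of members was 51 to 103 under the 8 alternative thresholds, pseudocounts and scales of the rule, within 1.5 times the 70 in each, and 61 to 73 when libraries were left out. With TMM-scaled sizes 80 features met the rule, 63 of them members. The 3 YPD comparisons called 0 members in every alternative, with the limit given above for DESeq2. With the replicate number as a block the count was 0 in each of them. Same-numbered YPD and acetate libraries of a strain had deviations that correlated between -0.0695 and 0.0823, and same-numbered libraries of different strains between -0.337 and 0.274 in the same medium, so the labels' numbers were not taken as pairs. The fit of all 18 libraries had 12, 6 and 9 of 70 members at an unadjusted p under 0.05. It called 22, 2 and 3 of 4783 features, none of them members. The share of all features at an unadjusted p under 0.05 was not computed for this fit. It takes 1 spread from both media, and all 70 members passed its filter with acetate counts included, against 47 in the fit of YPD libraries. Nothing is therefore read from the 12, 6 and 9.

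The median log2 ratio moved with the scale. In wild type it was 3.42, and 3.15 with a pseudocount of 10 CPM, 3.67 with TMM and 3.87 as edgeR's fold change. It was 3.92 in edgeR with a block that paired same-numbered YPD and acetate libraries of a strain, a pairing that the labels do not state. Leaving out a library gave 3.25 to 3.66. In a-type it was 3.11, and 2.90, 3.15, 3.32 and 3.35 in the same order, with 3.03 to 3.08 when a library was left out. In α-type it was 3.34, with 3.28 to 3.47 when a library was left out. The summed level without the member with the highest acetate mean, an alternative chosen after seeing the data, rose 11.9-fold in a-type and 13.1-fold in α-type, against 14.1-fold and 15.7-fold. The median YPD spread of the members, 45.2%, was 40.1% to 48.8% when a library was left out. The causes were not tested. Low YPD depth limits the ratio of members with few YPD counts.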

Other observations

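Position was used by the rule only to leave out the left ends of the chromosomes. The IDs carry a number but the files hold no coordinates or strand, so neighbours here are the next listed IDs of a chromosome, and whether number order is chromosome order was not tested. Members formed 2 pairs of next-listed IDs, and 3 pairs when 1 feature between was allowed. In the pair PP7435_Chr1-1513 and PP7435_Chr1-1514, with coding lengths of 648 and 639, the acetate levels were 409, 258 and 334 CPM in wild type for the former and 117, 124 and 102 CPM for the latter. In a-type they were 650, 729 and 538 CPM and 178, 153 and 167 CPM, and in α-type 598, 657 and 658 CPM and 137, 118 and 116 CPM. Both features had their a-type libraries above all wild-type libraries by library sum. On TMM-scaled library sizes this held for the former, whereas the a-type and wild-type libraries of the latter overlapped. In α-type the former lay above all wild-type libraries by library sum, whereas the latter overlapped with wild type. Whether these features share reads was not tested. In the pair PP7435_Chr1-1579 and PP7435_Chr1-1580, with coding lengths of 459 and 1287, the former had 347, 479 and 410 CPM in acetate wild type and the latter 453, 510 and 464 CPM, so their levels by count overlapped. In acetate a-type they had 465 ± 27.0 and 403 ± 24.6 CPM (SD, n = 3), and in α-type 515 ± 71.3 and 415 ± 25.1 CPM. Per length the former was far higher, at 1599 ± 201 against 303 ± 19.2 TPM in wild type.

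Of the 135 next-listed features that were no members, 130 met the ID, length and YPD parts of the rule. Among these, 21 had a ratio of acetate over YPD of at least 2 in all 3 strains, or 16.2%, against 370 of the 4600 non-members at large, or 8.04%. Their median log2 ratio was 0.10 in wild type, 0.29 in the a-type strain and 0.19 in the α-type strain, against -0.22, -0.08 and 0.02 in the 4600, which include them. These are counts without a test, and reads that run from a member into its neighbour were not tested.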
